A study of Mus musculus with 12 samples.

Results

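The interferon-stimulated antiviral genes are a group of 40 genes that cells switch on when they sense interferon. Here they were followed, tumour by tumour, in mouse pancreatic cancers treated with vehicle or with an inhibitor of focal adhesion kinase. A gene was taken as a member where a probe of the array that was not a control carried its symbol as gene name. By this rule 39 of the 40 listed genes had a probe, and Ifitm2 had none under that name. The 39 genes had 69 probes, of which 62 passed a filter on dim probes, and all 39 genes were among the 27376 genes tested.

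Total RNA came from tumour tissue of female C57BL/6 mice, given as aged 8 weeks, that all bore orthotopic KP tumours, which are tumours placed in the pancreas. The mice received vehicle (n = 6) or the inhibitor FAKi at 50 mg/kg by gavage (n = 6) for 14 days. The labels number the tumours and do not say more on how they were sampled, so p-values measure only the spread between these 12 samples. The comparison asks how the inhibitor altered expression in these tumours.

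Interferons are secreted alarm signals. Type I and type III interferons act through the kinases Jak1 and Tyk2, and a transcription factor complex that holds Irf9 then binds interferon-stimulated response elements. Interferon gamma, made mainly by T and NK cells, acts at gamma-activated sites and induces Irf1, so many of the same genes respond to both. In pancreatic cancer tissue these genes can be expressed by the tumour cells, by infiltrating leukocytes and by the stroma. In whole tumour RNA, a change in the share of a cell type cannot be told apart from a change in RNA per cell.

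Values are log2 signal relative to the 75th percentile of the same array, so that 0 is the 75th percentile and 1 unit is a doubling of signal. Levels are compared within a gene only, because probes differ in brightness. The 75th percentile of the 12 arrays lay between 11.82 and 13.88 on the log2 scale, and the software rated 66.6% to 76.1% of the spots on an array as well above background. All 39 genes were well above background on all 12 arrays. The epithelial keratins Krt8, Krt18 and Krt19 were also well above background on all 12. The arrays lay on 5 slides, and only slide 1 (vehicle 3, vehicle 5 and FAKi 5) and slide 4 (vehicle 2, vehicle 6 and FAKi 1) held both groups. For vehicle 1 and 4 on slide 2, FAKi 2, 3 and 4 on slide 3 and FAKi 6 on slide 5, slide and group cannot be told apart.

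In RefSeq promoter windows of 300 bases (GRCm38.p6, 250 bases before to 50 after the gene start), which were given for 30 of the 40 genes, 14 (46.7%) held the core of the response element. That core was searched on both strands as 2 GAAA tetramers with 2 free bases between them, and overlapping matches were counted. It occurred in 3.44% of all 32851 promoter windows, and in at least 1 window of 3.99% of all genes. The core of the gamma-activated site, TTCNNNGAA, occurred in 8 of the 30 (26.7%), in 8.30% of all windows and in at least 1 window of 9.55% of all genes. The stretches below are shown because they carry the element in genes of different roles that recur in the results, with Ifitm1 as a gene whose window had no match. Capitals mark the matched bases, the letters run along the strand of the gene, and TTTC is GAAA read from the other strand.
Ifit3, chr19:34583353-34583436, plus strand: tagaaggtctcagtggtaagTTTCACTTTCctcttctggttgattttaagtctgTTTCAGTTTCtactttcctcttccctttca
Isg15, chr4:156200855-156200916, minus strand: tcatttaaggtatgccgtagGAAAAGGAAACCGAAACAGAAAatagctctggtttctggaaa
Oas3, chr5:120777705-120777754, minus strand: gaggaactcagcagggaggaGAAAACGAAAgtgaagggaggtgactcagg
Bst2, chr8:71537567-71537622, minus strand: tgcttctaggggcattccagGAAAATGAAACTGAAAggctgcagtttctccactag
Rsad2, chr12:26456543-26456592, minus strand: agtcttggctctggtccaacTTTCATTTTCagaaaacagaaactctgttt
Trim30a, chr7:104465200-104465249, minus strand: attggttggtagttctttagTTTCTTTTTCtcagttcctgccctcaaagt
Ifitm1, chr7:140967976-140968075, plus strand: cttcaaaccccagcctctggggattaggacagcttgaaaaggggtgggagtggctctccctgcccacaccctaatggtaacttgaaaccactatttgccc

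Isg15 held 3 overlapping matches in a row, Bst2 held 2 that share a tetramer, and Ifit3 held 2 that lie apart. A match is a description of letters and not a proof of a site. The absence of a match says only that these letters are not in this window.

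Between the treatments, no interferon-stimulated gene passed the test. Of the 39 genes, 0 had an adjusted p under 0.05 in limma, as did 0 (0%) of all 27376 genes tested, and every member had an adjusted p of 0.999. At an unadjusted p under 0.05 in limma there were again 0 of 39, against 4.79% of all genes. The smallest unadjusted p among the members in the limma fit was 0.108, for Mx1. The groups did not overlap in 0 of the 39 genes, against 0.238% of all genes. Without FAKi 1, 3 genes passed the adjusted threshold in limma, and 0 of them were members.

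In the probe used for each gene, the estimates leaned to lower values under FAKi. The log2 difference (FAKi minus vehicle) was below 0 for 27 of 39 genes, against 39.5% of all genes tested. The other probes of these genes that passed the filter did not share this lean, with 6 of 23 below 0. The median difference was -0.18 over the 39 genes and 0.08 over all genes. Single differences ran from -0.93 for Ifitm1 to 0.25 for Oasl1, and the median standard error was 0.34. Leaving out 1 array at a time gave medians from -0.29 (without FAKi 5) to -0.04 (without FAKi 4). In the 2 slides that held both groups, the median had the opposite sign. Within slide 1 the median over the 39 genes was 0.38 (30 above 0) where that of all genes was 0.27. Within slide 4 it was 0.31 (27 above 0) where that of all genes was -0.27. With slide as a fixed block the median was 0.41, with 34 genes above 0. These values rest on 1 FAKi tumour per slide, FAKi 5 and FAKi 1.

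**Figure D1:**
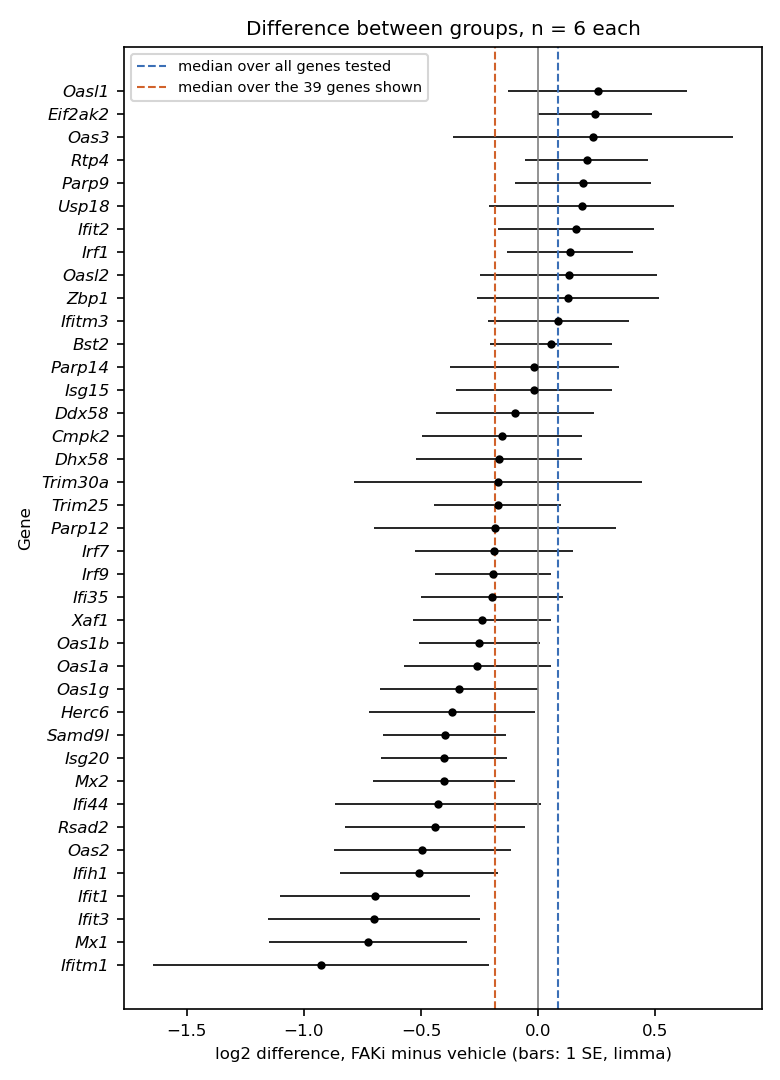
Log2 difference, FAKi minus vehicle, of each of the 39 genes (points) with 1 standard error from limma (bars), n = 6 per group; dashed lines give the median over the 39 genes, -0.18, and over all genes tested, 0.08. The bars of most genes span 0, and the genes with the lowest estimates are Ifitm1, Mx1, Ifit3 and Ifit1.

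The FAKi tumours lay further from each other than the group means did. For each tumour, the deviation of each gene from its own mean over the 12 tumours was averaged over the 39 genes. The 6 vehicle tumours lay between -0.12 (vehicle 3) and 0.24 (vehicle 4 and vehicle 5). FAKi 5 lay at 0.50, FAKi 1 at 0.35 and FAKi 2 at 0.30, while FAKi 6 lay at -0.36, FAKi 3 at -0.46 and FAKi 4 at -0.87. On this scaling the vehicle tumours thus fell inside the range of the FAKi tumours, with 3 FAKi tumours above all of them and 3 below. The mean deviation of all genes tested also differed between tumours. It was 0.38 in vehicle 6, 0.23 in FAKi 6, -0.13 in vehicle 5, -0.19 in vehicle 1 and -0.25 in vehicle 3. In the other tumours it lay between -0.05 and 0.03. The order of the tumours under other scalings was not tested. In FAKi 4, 2 of 39 genes were above their own mean, and 25 of 39 genes had their lowest value of all 12 tumours there. In FAKi 5, 33 of 39 genes were above their own mean, and 11 of 39 had their highest value.

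**Figure D2:**
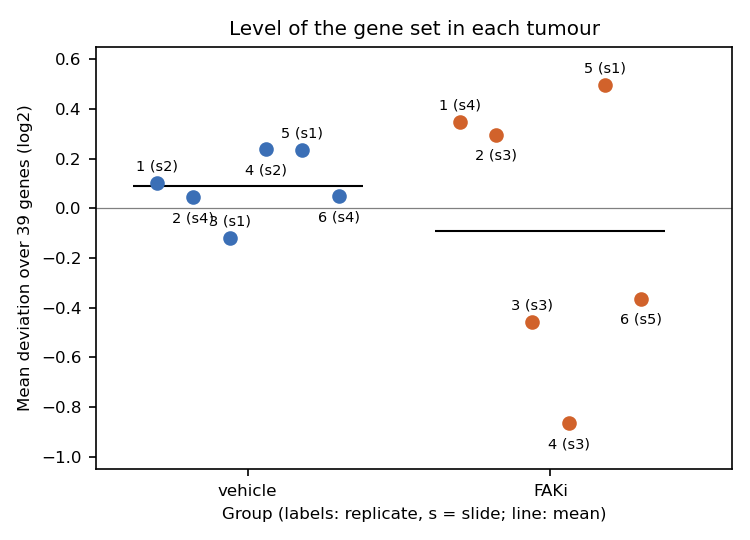
Mean deviation of the 39 genes (log2) in each tumour, by group, with replicate and slide beside each point and the group mean as a line. The vehicle tumours lie between -0.12 and 0.24, and the FAKi tumours between -0.87 and 0.50.

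The same held gene by gene. The standard deviation over the 6 FAKi tumours was larger than that over the 6 vehicle tumours for 28 of 39 genes, against 27.8% of all genes tested. Over the 39 genes the median standard deviation was 0.50 in vehicle and 0.68 in FAKi. Over all genes it ran the other way, 0.67 in vehicle and 0.44 in FAKi. Leaving out 1 array at a time gave 24 (without vehicle 2 or without FAKi 4) to 32 (without FAKi 3) of the 39 genes. The share of all genes then ranged from 20% without FAKi 6 to 42.2% without vehicle 6. Vehicle 6 was the array of lowest 75th percentile. Without it, the median standard deviation over all genes was 0.51 in vehicle and 0.44 in FAKi. Over the 39 genes it was then 0.42 and 0.68. No test of the spread was run, and the spread within each group was not computed for the other probes of these genes. Over all 12 tumours, 3 of 39 genes had a standard deviation over 1, against 14.0% of all genes: Ifitm1, Trim30a and Oas3.

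**Figure D3:**
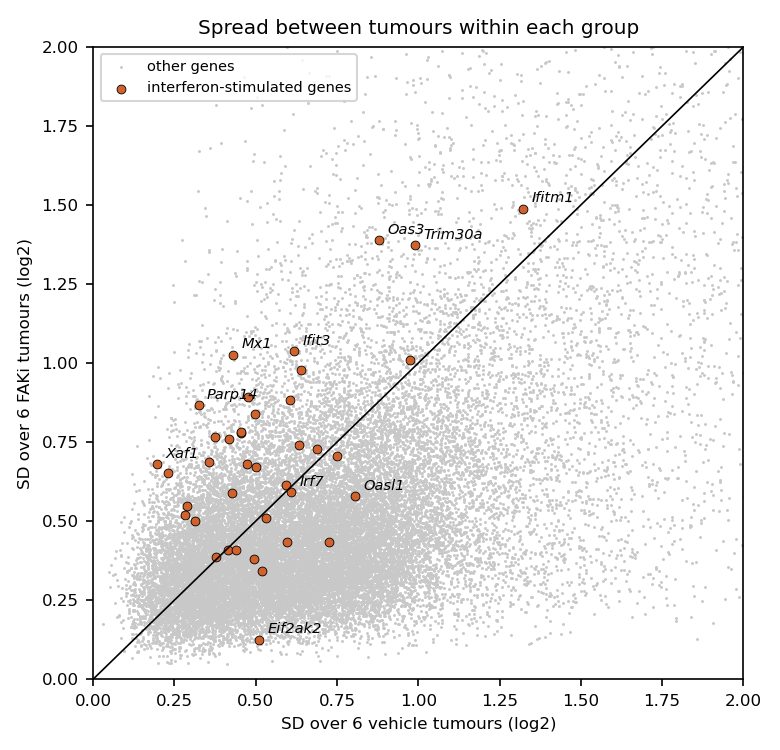
Standard deviation (log2) over 6 FAKi tumours against that over 6 vehicle tumours for each gene; grey points are all other genes tested, coloured points the 39 interferon-stimulated genes, the line marks equal spread, and both axes end at 2. Of the 39 genes, 28 lie above the line, while 27.8% of all genes do.

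The 39 genes also moved together more closely among the FAKi tumours. Over the 741 pairs of these genes, the median Pearson r was 0.39 over 12 tumours, 0.07 over the 6 vehicle tumours and 0.64 over the 6 FAKi tumours. These pairs share arrays and scaling, and the values are a description. No such medians were computed for pairs of other genes within each group. Whether the contrast is particular to the 39 genes was thus not tested, nor was the part of the wider range within FAKi in it. Without FAKi 4 the median was 0.27 over the remaining tumours and 0.54 within FAKi. Centring each array on its median in place of the 75th percentile gave 0.25 within vehicle and 0.67 within FAKi. Leaving out 1 vehicle array at a time gave 0.03 (without vehicle 3) to 0.12 (without vehicle 6 or without vehicle 1) within vehicle. The closest pairs over 12 tumours were Bst2 with Zbp1 and Irf7 with Ifi35, both at r = 0.92, and Oas2 with Ifih1, at r = 0.91. For 27 of 39 genes, r with the mean of the other members was over 0.5, which held for 2.26% of genes outside the group. Xaf1 (r = 0.91) and Mx1 (r = 0.88) followed the rest most closely. Eif2ak2 (r = -0.07), Oasl1 (r = 0.0070), Oas1b (r = 0.06), Samd9l (r = 0.07) and Trim25 (r = 0.12) did not follow it in the probe used. Other probes gave higher values for some genes, with r = 0.50 and 0.32 for Oas1b, 0.30 and 0.35 for Trim25 and 0.85 for Zbp1 (0.76 in the probe used). For others they gave lower values. These were -0.17 and 0.14 for Parp9 (0.73 in the probe used), -0.10 for Ifi44 (0.80) and 0.12 for Irf1 (0.64). A second probe of Xaf1 gave 0.64. How closely a gene followed the rest thus holds for the probe used. The 13 measured genes with the response element in their promoter window had a median r of 0.65, and the 16 with a window and no match had 0.59.

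**Figure D4:**
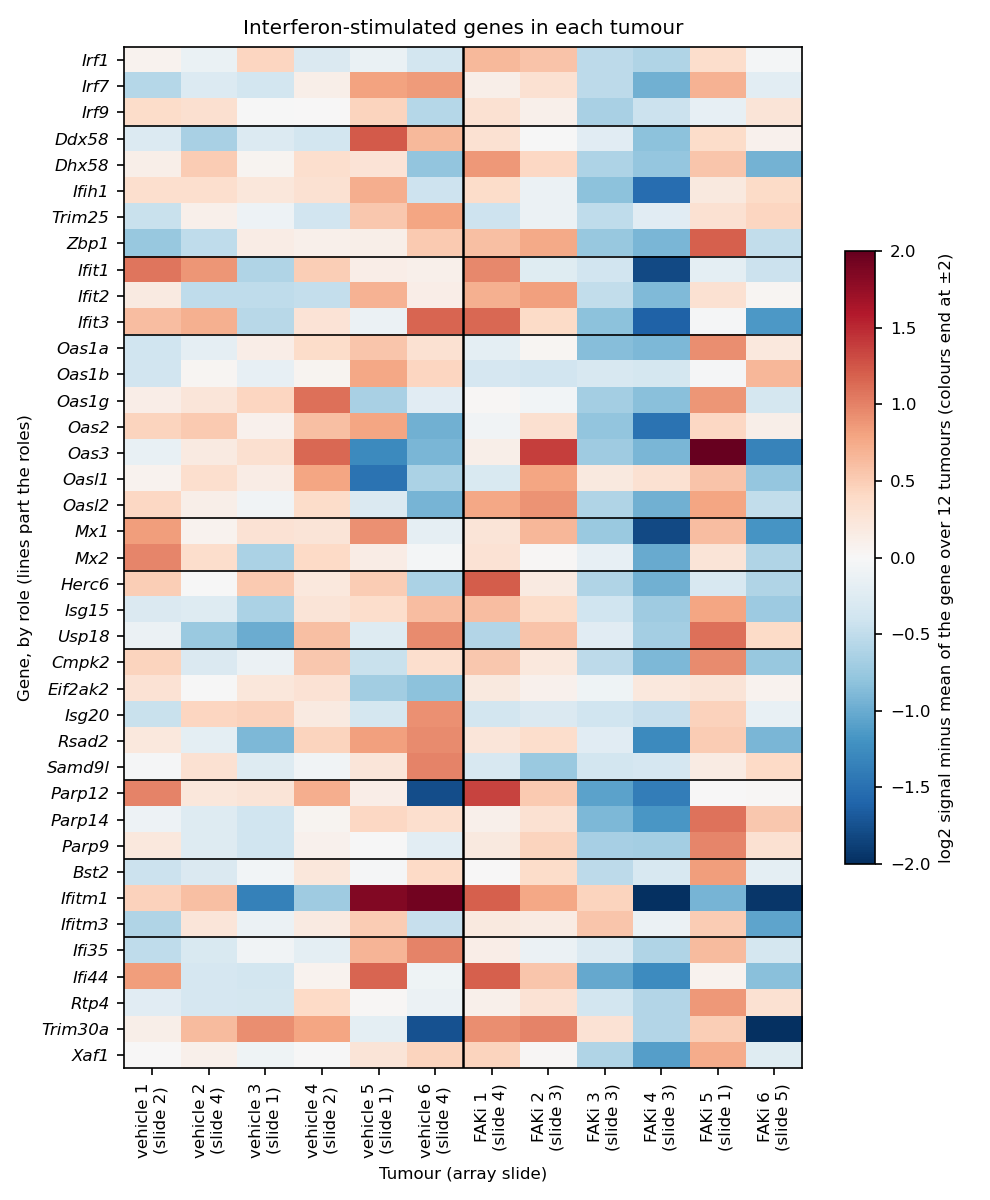
Log2 signal of each of the 39 genes in each of the 12 tumours, minus the mean of the gene over the 12, with genes parted by role and the slide given under each tumour; colours end at 2 on either side. FAKi 4 is low in most rows, with 2 of 39 genes above their mean, and FAKi 5 is high, with 33 of 39.

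The transcription factors of the response did not differ in level between the groups beyond their spread. Irf7, the master amplifier of type I interferon production, lay between 2.57 (vehicle 1) and 3.99 (vehicle 6) in vehicle, with a median of 3.07. In FAKi it lay between 2.19 (FAKi 4) and 3.84 (FAKi 5), with a median of 3.1. The ranges of the groups overlapped, with FAKi 4 below all vehicle tumours and vehicle 5 and vehicle 6 above all FAKi tumours. The difference was -0.19 (SE 0.34). Irf1, which carries the response to interferon gamma, ranged from 2.24 through a median of 2.48 to 3.05 in vehicle, and from 2.01 (FAKi 4) through 2.77 to 3.26 (FAKi 1) in FAKi. Its highest values were in FAKi 1 and FAKi 2 and its lowest in FAKi 4 and FAKi 3, all outside the range of the vehicle tumours. Irf9, a DNA-binding part of the complex named above, ranged from 0.34 through 1.08 to 1.35 in vehicle, and from 0.27 through 0.88 to 1.22 in FAKi. The vehicle group had 1 low tumour in Irf9, vehicle 6, at the level of FAKi 3 and FAKi 4.

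Among the sensors of viral nucleic acid, the RNA helicase Ifih1 (MDA5) had the lowest estimate, -0.51 (SE 0.34). Ifih1 ranged from -2.42 through -1.67 to -1.26 in vehicle and from -3.52 (FAKi 4) through -1.96 to -1.61 in FAKi. The values of FAKi 3 and FAKi 4 lay under all vehicle tumours, and the other FAKi tumours lay among them. Trim25, the ubiquitin ligase that activates the helicase RIG-I, ranged from 2.97 through 3.41 to 4.20 in vehicle and from 2.90 through 3.24 to 3.84 in FAKi. Its 2 highest tumours were vehicle 6 and vehicle 5. Ddx58 (RIG-I itself), Dhx58 (LGP2) and the Z-nucleic acid sensor Zbp1 had differences of -0.10 (SE 0.34), -0.17 (SE 0.35) and 0.13 (SE 0.39). Zbp1 was spread most among these 3 within FAKi, from 0.84 in FAKi 4 to 2.95 in FAKi 5, where the vehicle tumours ran from 0.99 to 2.28.

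The IFIT proteins bind foreign RNA and hold back its translation, and Ifit1 and Ifit3 had some of the lowest estimates of the group. Ifit1 ranged from -2.15 through -1.24 to -0.48 in vehicle and from -3.37 (FAKi 4) through -1.87 to -0.59 (FAKi 1) in FAKi, a difference of -0.70 (SE 0.41). Ifit3 ranged from 0.45 through 1.44 to 2.17 in vehicle and from -0.62 (FAKi 4) through 0.58 to 2.15 (FAKi 1) in FAKi, a difference of -0.70 (SE 0.45). In both genes FAKi 1 stood near the top of the vehicle range and FAKi 4 below its bottom. Ifit2 had the opposite sign, 0.16 (SE 0.33), so the 3 relatives did not lean one way.

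The Mx GTPases trap viral nucleocapsids. In C57BL/6 mice Mx1 carries a deletion that leaves its protein without function, and what was measured here is its transcript. Mx1 ranged from -2.51 through -2.05 to -1.41 in vehicle and from -4.13 (FAKi 4) through -2.56 to -1.66 (FAKi 2) in FAKi. FAKi 3, 4 and 6 lay below all vehicle tumours, and the other 3 FAKi tumours lay among them. The difference was -0.73 (SE 0.42), and the standard deviation was 0.43 in vehicle and 1.03 in FAKi. Within slide 1 the difference in Mx1 was 0.01 and within slide 4 it was 0.32. Mx2 ranged from -3.88 through -3.0 to -2.27 in vehicle and from -4.26 through -3.33 to -2.97 in FAKi, a difference of -0.40 (SE 0.30). Its highest value was in vehicle 1 and its lowest in FAKi 4.

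The active members of the oligoadenylate synthetase family make a second messenger that activates RNase L, which cleaves RNA. Of 7 genes of the family, active or not, 4 had estimates below 0. Oas2 ranged from -1.46 (vehicle 6) through -0.02 to 0.28 in vehicle and from -1.99 (FAKi 4) through -0.48 to -0.09 in FAKi, a difference of -0.49 (SE 0.38). Oas1g ranged from -0.55 through 0.29 to 1.19 in vehicle and from -0.73 through -0.10 to 0.97 in FAKi, a difference of -0.34 (SE 0.34). FAKi 4, vehicle 6 and FAKi 3 were the 3 lowest tumours in Oas2, and FAKi 4 and FAKi 3 the 2 lowest in Oas1g. Oas3 had the widest range within FAKi of this family, from -3.95 (FAKi 6) through -2.90 to -0.45 (FAKi 5), and from -3.89 (vehicle 5) through -2.60 to -1.46 (vehicle 4) in vehicle. Its difference was 0.23 with an SE of 0.60. Oas1a (-0.26, SE 0.31), Oas1b (-0.25, SE 0.26), Oasl1 (0.25, SE 0.38) and Oasl2 (0.13, SE 0.38) completed the family. Oas1b, which is truncated in C57BL/6 mice, and Oasl1 ran against each other over the 12 tumours, at r = -0.74, the lowest of all pairs. This holds for the probe used for Oas1b, which had r = -0.44 and -0.81 with the 2 other probes of that gene. The Oas1 genes are near-identical copies, so cross-hybridisation between their probes could mix their signals, and this was not tested.

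Isg15 is a small protein that is joined to others like ubiquitin, Herc6 is its ligase in mice and Usp18 removes it and also dampens interferon signalling. Isg15 had a difference of -0.02 (SE 0.33), with vehicle tumours between 2.54 and 3.80 and FAKi tumours between 2.45 and 3.97. Herc6 ranged from -4.44 through -3.45 to -3.27 in vehicle and from -4.77 through -4.26 to -2.59 (FAKi 1) in FAKi. FAKi 1 was the highest of all 12 tumours in Herc6, and 4 other FAKi tumours lay below 5 of the 6 vehicle tumours. Usp18 ranged from 0.02 through 0.82 to 1.96 in vehicle and from 0.34 through 1.09 to 2.11 in FAKi. Herc6 and Usp18 had estimates of opposite sign, -0.37 (SE 0.35) and 0.19 (SE 0.39).

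Among the effectors that act on RNA, nucleotides and translation, the exonuclease Isg20 ranged from 3.64 through 4.39 to 5.0 in vehicle and from 3.62 through 3.75 to 4.55 in FAKi. FAKi 5 stood alone at 4.55, and the other 5 FAKi tumours lay between 3.62 and 3.93. Samd9l, which restrains translation, ranged from 2.39 through 2.76 to 3.63 (vehicle 6) in vehicle and from 1.91 through 2.31 to 3.04 in FAKi. The differences were -0.40 for both (SE 0.27 for Isg20 and 0.26 for Samd9l). Rsad2 (viperin), which makes a chain-terminating nucleotide, had -0.44 (SE 0.39). Its neighbour on chromosome 12, the nucleotide kinase Cmpk2, had -0.15 (SE 0.34). Eif2ak2 (PKR), the kinase that halts translation on sensing double-stranded RNA, was the only one of the 5 above 0, at 0.24 (SE 0.24). The FAKi tumours were tight in Eif2ak2, between -0.55 and -0.20, and vehicle 5 (-1.16) and vehicle 6 (-1.28) lay below all others.

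The membrane-bound restriction factors block entry or release of virus. Ifitm1, which blocks fusion, had both the lowest estimate and the widest spread of the 39 genes. It ranged from 1.57 (vehicle 3) through 3.44 to 4.84 (vehicle 6) in vehicle and from 0.58 (FAKi 4) through 2.68 to 4.12 (FAKi 1) in FAKi. The difference was -0.93 with an SE of 0.72, and the standard deviation was 1.32 in vehicle and 1.49 in FAKi. FAKi 5, the highest FAKi tumour in 19 of the 39 genes, was low in Ifitm1, at 1.99. Ifitm3 ranged from 3.93 through 4.56 to 5.03 in vehicle and from 3.48 (FAKi 6) through 4.72 to 5.08 (FAKi 3) in FAKi, so that FAKi 3, with only 4 of 39 genes above their mean, was the highest of all 12 tumours here. Bst2 (tetherin), which holds budding virus on the cell, had a difference of 0.06 (SE 0.26) and ran from 4.05 in FAKi 3 to 5.42 in FAKi 5.

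The PARP enzymes of the group attach ADP-ribose to proteins. Parp9 was among the tightest genes in vehicle, from 0.47 through 0.76 to 1.08, and ranged from 0.18 (FAKi 4) through 1.12 to 1.84 (FAKi 5) in FAKi. Its standard deviation was 0.23 in vehicle and 0.65 in FAKi, and its difference was 0.19 (SE 0.29). In Parp9, FAKi 3 and FAKi 4 lay below all vehicle tumours and FAKi 2, 5 and 6 above all of them. Parp12 ranged from -3.60 (vehicle 6) through -1.57 to -0.82 in vehicle and from -3.19 (FAKi 4) through -1.80 to -0.47 (FAKi 1) in FAKi. Vehicle 6 stood alone in Parp12, as the other 5 vehicle tumours lay between -1.69 and -0.82. Parp14 had a difference of -0.02 (SE 0.36), with a standard deviation of 0.32 in vehicle and 0.87 in FAKi.

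Of the remaining induced genes, Xaf1, which promotes apoptosis, showed the contrast in spread most plainly. It ranged from 2.02 through 2.16 to 2.55 in vehicle and from 1.0 (FAKi 4) through 2.0 to 2.85 (FAKi 5) in FAKi. The standard deviation of Xaf1 was 0.20 in vehicle and 0.68 in FAKi, and its difference was -0.24 (SE 0.29). These values hold for the probe used, and a second probe of Xaf1 had r = 0.38 with it. Ifi44, a gene used widely as a readout of type I interferon, ranged from -3.94 through -3.57 to -2.40 in vehicle and from -4.82 through -3.95 to -2.36 (FAKi 1) in FAKi, a difference of -0.43 (SE 0.44). FAKi 3, 4 and 6 lay below all vehicle tumours in Ifi44, as in Mx1. For Ifi44 this holds for the probe used, as a second probe had r = 0.18 with it and a difference of 0.47. Trim30a, an inhibitor of inflammatory signalling, ranged from -3.12 (vehicle 6) through -1.01 to -0.45 in vehicle and from -4.02 (FAKi 6) through -0.99 to -0.38 in FAKi. In Trim30a 1 tumour of each group, vehicle 6 and FAKi 6, lay far below the rest of its group, and the difference was -0.17 (SE 0.61). Ifi35 had -0.20 (SE 0.30), and Rtp4, a chaperone of receptors, had 0.21 (SE 0.26).

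Different probes of a gene often disagreed. Of the 39 genes, 18 had more than 1 probe that passed the filter, which gave 23 other probes beside those used. The median r of these with the probe used, over 12 tumours, was 0.17, with 6 of 23 over 0.5 and 8 below 0. In 14 of 23 the difference between the groups had the opposite sign, and in 6 of 23 it was below 0. With the mean of all probes of a gene in place of the brightest, the median difference over the 39 genes was -0.09, with 23 below 0. The other probe of Irf7 had r = -0.13 with the one used and a difference of 0.20. In Trim30a the low values recurred in a second probe, with r = 0.98, and not in the third, with r = -0.36.

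The rest of the interferon pathway did not pass the test either. In limma, 0 of 5 measured ligands (of 11 listed), 0 of 6 receptors, 0 of 8 signal transducers, 0 of 9 upstream sensors and adaptors and 0 of 6 inhibitors had an adjusted p under 0.05, and 0 in each list had an unadjusted p under 0.05. Of these, 1 ligand, 0 receptors, 3 transducers, 5 sensors and adaptors and 2 inhibitors had differences below 0. Among the ligands, Ifnl3 had a difference of -0.26 (SE 0.39), Ifna2 0.15 (SE 0.33) and Ifng 0.07 (SE 0.76). The probes of interferon alpha genes can cross-react. Within their groups, Ifna1, Ifna2, Ifna5 and Ifnl3 were each highest in vehicle 6 and FAKi 6. These were the arrays of lowest 75th percentile in each group, 11.82 and 12.82. Ifng was highest in vehicle 3 and FAKi 5. The part of array signal in the ligand values was not tested. Among the receptors, the chains Ifnar2 and Ifngr2 had 0.18 (SE 0.21) and 0.23 (SE 0.27). Among the transducers, Jak2, a kinase of the gamma receptor, had -0.46 (SE 0.28). The adaptor Ticam1, which serves Tlr3, had 0.46 (SE 0.24), and Socs1, a feedback inhibitor of the kinases, 0.44 (SE 0.38).

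Irf7, in the probe used, was set against other genes and the array signal over the 12 tumours. The p-values were adjusted over the 5 relations computed, of which 4 are reported. The other probe of Irf7, at r = -0.13 with the one used, was not set against them. Of the leukocyte markers used below, only Ptprc was set against Irf7. Irf7 followed Ptprc (CD45), the common antigen of leukocytes, with r = 0.83 (permutation adjusted p = 0.0029) and rho = 0.78 (permutation adjusted p = 0.018). Without the 2 tumours farthest in Ptprc, vehicle 5 and FAKi 5, r was 0.75 (permutation adjusted p = 0.053, n = 10). The adjusted p was thus no longer under 0.05 with these fewer tumours. Within vehicle r was 0.71 (exact permutation p = 0.082, n = 6), and within FAKi it was 0.96 (exact permutation p = 0.0056, adjusted 0.019 over the 10 values within groups, n = 6).

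With Ifng, the gene of interferon gamma, Irf7 had r = 0.51 (permutation p = 0.091, adjusted 0.152) and rho = 0.38 (permutation p = 0.22, adjusted 0.37) over 12 tumours. Within FAKi, Ifng lay at -1.23 in FAKi 5, -2.03 in FAKi 1, -2.05 in FAKi 2, -4.19 in FAKi 6, -5.18 in FAKi 3 and -6.15 in FAKi 4. The tumours high in the interferon-stimulated genes were thus high in Ifng, and r with Irf7 was 0.98 (exact permutation p = 0.0028, adjusted 0.019, n = 6). Within vehicle Ifng ran from -4.62 to -2.54, and r was -0.44 (exact permutation p = 0.37, n = 6). Ifng was dim, and not well above background in FAKi 4. Without the 2 farthest tumours, FAKi 4 and FAKi 5, r over the remaining 10 was 0.12.

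The ductal keratin Krt19 had r = -0.32 with Irf7 over 12 tumours (permutation p = 0.31) and rho = -0.25 (permutation p = 0.43). With quantile normalisation this r was -0.61. The 75th percentile of the array had r = -0.55 (permutation p = 0.054, adjusted 0.136) and rho = -0.45 (permutation p = 0.14) with Irf7. Within vehicle this r was -0.84 (exact permutation p = 0.0042, adjusted 0.019, n = 6), and within FAKi 0.03 (exact permutation p = 0.93, n = 6). The arrays of lower signal thus had the higher Irf7 values in vehicle, and the part of signal in the vehicle relations was not tested. The differences between the groups in these correlations were not tested. Slides hold at most 3 arrays, so no relation was computed within a slide.

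**Figure D5:**
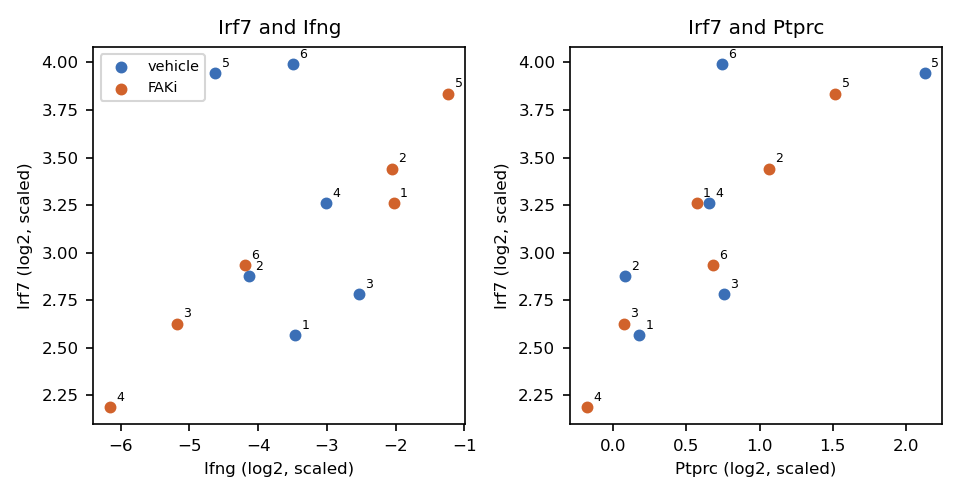
Irf7, in the probe used, against Ifng and Ptprc (log2 relative to the 75th percentile of the array) in 12 tumours, coloured by group and numbered by replicate. Within FAKi r was 0.98 with Ifng and 0.96 with Ptprc, and within vehicle it was -0.44 and 0.71.

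Markers of some immune cells followed the 39 genes more closely than others. The level of a marker list was the mean deviation of its genes in a tumour, set against the mean deviation of the 39 genes over 12 tumours. Conventional dendritic cell markers (4 of 5 measured, Xcr1 having no probe that passed) had r = 0.73, from -0.23 to 0.56 in vehicle and from -1.14 to 0.68 in FAKi. Their lowest levels were in FAKi 3 (-1.14) and FAKi 4 (-0.75), and their highest in FAKi 5. T cell markers (5 of 6 measured) had r = 0.57, from -0.68 to 0.50 in vehicle and from -0.77 in FAKi 3 to 1.62 in FAKi 5. The markers of all leukocytes (4 of 4 measured) had r = 0.55, from -0.62 to 0.69 in vehicle and from -0.91 to 0.59 in FAKi. Single markers of these lists differed. Among those of all leukocytes, r was 0.63 for Ptprc, 0.61 for Coro1a, 0.51 for Cd52 and 0.12 for Laptm5. Among the T cell markers it was 0.68 for Cd8a, 0.62 for Cd3g, 0.59 for Cd3d, 0.44 for Cd3e and 0.12 for Cd4. All 13 measured genes of these 3 lists were well above background on all 12 arrays. Plasmacytoid dendritic cell markers had r = 0.31, NK cell and macrophage markers 0.30 each, neutrophil markers 0.21 and B and plasma cell markers 0.09. Fibroblast markers had r = 0.28, epithelial markers -0.26 and acinar markers -0.38. Skeletal muscle markers had r = -0.18 and stood at 4.04 in FAKi 3. The part of these cell types in the level of the interferon-stimulated genes was not tested.

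Outside the group, the 10 genes whose pattern over 12 tumours was most like the mean of the 39 genes, of 16626 candidates, included Nod2, a sensor of bacterial cell walls (r = 0.89), and the complement gene C2 (r = 0.88). The GTPase genes Ifi47 (r = 0.88), Gbp3 (r = 0.87) and Gbp2 (r = 0.87) were next to them. The list also held Tap2, the peptide transporter of antigen presentation (r = 0.84), and Cytip (r = 0.84). Prkar1b headed it at r = 0.90, with Htr7 (r = 0.87) and Zmynd15 (r = 0.85). In limma these 10 genes also had an adjusted p of 0.999 between the groups.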

How the data were processed

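Each of the 12 arrays was a one-colour (Cy5) Agilent array. The red intensity values were made by the authors with Feature Extraction 11.5.1.1, per the file headers, with background already subtracted. A second deposited table held log2 values of 38569 probes, and the submitters' processing notes name limma with no version. Each of its columns correlated best with its own array. The sources used here do not state its normalisation.

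From the intensities, log2 processed signal minus the 75th percentile of the array was averaged where a probe had several spots, without control spots and outlier spots (71 to 156 per array; 0 spots were saturated). Probes well above background on at least 6 of 12 arrays were kept (40460), and a gene was represented by its brightest probe. The number of arrays limits the precision. Gene names are those of the array's design, and 36 of the 39 accessions matched RefSeq, all with the same symbol.

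The groups were compared with limma 3.58.1 in R 4.3.3 (lmFit and eBayes, no covariate), adjusted by Benjamini-Hochberg over all 27376 genes, and the procedure was tested on simulated data. Correlations used 100000 permutations, or exact permutation over 6 tumours, two-sided, and 1 relation is not reported here. The lowest, median and highest value of each group are given for Irf1, Irf7 and Irf9, the 2 genes of smallest p in each role and the 3 of largest spread, and others singled out were chosen after their values were seen. The members, gene lists and tests were chosen with earlier results of these data known. Alternatives covered normalisation, background, probe filters, the deposited table, array weights, slide, a replicate block and the removal of single arrays.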

Additional observations from a re-analysis of the deposited data

Results flagged for a closer look

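Among 82 sets of 6 values examined (39 genes, their mean deviation and the array signal, in each group), 4 had 1 tumour far from the other 5. Chance flags about 1 in 20 such sets. Isg20 stood at 4.55 in FAKi 5, where the other FAKi tumours lay between 3.62 and 3.93. Oas1b stood at 3.68 in FAKi 6, where the others lay between 2.63 and 3.0. Dhx58 stood at -2.21 in vehicle 6, where the other vehicle tumours lay between -1.37 and -0.93. Parp12 stood at -3.60 in vehicle 6, where the others lay between -1.69 and -0.82. Vehicle 6 was also the array of lowest 75th percentile, 11.82, and the part of that signal in these values was not tested.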

How the results depend on the processing

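Leaving out 1 array at a time moved the median difference of the 39 genes between -0.29 (without FAKi 5) and -0.04 (without FAKi 4). With slide as a fixed block it was 0.41, within slide 1 0.38 and within slide 4 0.31, and the other alternatives kept it below 0. Genes called numbered 0, against 4 with array weights and 0 to 3 when 1 array was left out (3 without FAKi 1), and no alternative called any of the 39 genes. At an unadjusted p under 0.05 in limma there were 1312 genes, against 5169 with array weights, 496 with slide as a fixed block, and 763 (without FAKi 4) to 3776 (without vehicle 6) when 1 array was left out. Of the 39 genes, 3 reached that unadjusted p with array weights, where 5169 of all 27376 genes did. Without FAKi 1, 3 of the 39 reached it, where 1736 of all 27376 genes did. Samples of the same replicate number were not treated as pairs: r of their deviations was over 0.1 for 4 of 6 numbers and ran from -0.12 to 0.48. The replicate block gave 1669 genes at that unadjusted p, with no member called. For Irf7, r moved as follows. With Ifng it was -0.44 in vehicle and 0.98 in FAKi. With Ptprc it was 0.75 without the 2 farthest tumours and 0.71 in vehicle. With Krt19 it was -0.61 with quantile normalisation. With the array's 75th percentile it was -0.84 in vehicle and 0.031 in FAKi. The spread and the pairwise correlations were set against other scalings and left-out arrays as alternatives chosen after seeing the data, and other scalings gave 28 to 32 of 39 genes with the larger spread in FAKi. The cause of these changes was not tested.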
